A study of Mus musculus with 6 samples.

Results

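Transcripts of 9 genes of the pancreatic duct and of simple epithelia were followed in pancreatic islets of 2 obese mouse strains. The genes were chosen by name: Krt19, Krt7, Krt8 and Krt18, which encode keratins, the transcription factor gene Sox9, the chloride channel gene Cftr, the carbonic anhydrase gene Car2, the membrane mucin gene Muc1 and Spp1, which encodes osteopontin. All 9 had a probe on the array, and every non-control probe whose gene name is one of them was taken, which gave 15 of 41174 probes. One strain, NZO/HiBomDife (NZO below, for New Zealand Obese), is labelled as prone to diabetes. The other, C57BL/6.V-Lepob/ob (B6-ob/ob below), carries the obese mutation of leptin and is labelled as resistant to it. All mice of both strains were male, ate a high-fat diet free of carbohydrate up to an age of 18 weeks, and then received carbohydrate for 48 h before islets were taken. Each strain had 3 arrays, called NZO 10, 11 and 12 and B6-ob/ob 4, 5 and 6 after the sample titles. Strain background, leptin deficiency and susceptibility to diabetes cannot be told apart in this design. Whether an array stands for 1 animal or a pool is not said, so p-values only measure how far these samples spread, and that spread may be technical.

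The pancreatic duct is a simple epithelium that carries the enzymes of acinar cells to the gut and adds bicarbonate and fluid on the way. Its cells are known for Krt19 and Krt7, for Sox9, which marks pancreatic progenitors in the embryo and duct cells in the adult, and for the apical chloride channel Cftr, which works together with carbonic anhydrase 2 in bicarbonate secretion. Muc1 lines the apical surface of ducts, and osteopontin is a secreted phosphoprotein found in duct cells and macrophages. Krt8 and Krt18 pair into the keratin filament of simple epithelia, so they belong to acinar and endocrine cells as well as to ducts. An islet preparation contains endocrine cells and, to a varying degree, attached exocrine and connective tissue. In such bulk samples, fewer cells of a type and less RNA per cell cannot be told apart.

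Expression was read as the brightness of Cy3-labelled cRNA on 60-base probes. A level is the log2 of a probe's processed intensity minus the 75th percentile of its own array, so a level of 0 lies at that percentile. Levels were compared between strains for a given probe and never between probes, because brightness depends on the probe. The following probe sequences are shown 5′ to 3′ because the results turn on them: the keratin that differed most among the 4 chosen, a keratin that did not pass the test, both probes of Muc1, and the probes of Sox9 and Cftr that gave no signal above background while other probes of these genes did.
Krt19 probe: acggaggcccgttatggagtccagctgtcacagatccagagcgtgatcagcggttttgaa
Krt7 second probe: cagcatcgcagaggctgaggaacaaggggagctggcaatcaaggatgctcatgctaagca
Muc1 first probe: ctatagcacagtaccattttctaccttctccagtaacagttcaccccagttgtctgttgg
Muc1 second probe: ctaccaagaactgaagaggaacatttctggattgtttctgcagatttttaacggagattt
Sox9 first probe: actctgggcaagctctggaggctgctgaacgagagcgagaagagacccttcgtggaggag
Cftr second probe: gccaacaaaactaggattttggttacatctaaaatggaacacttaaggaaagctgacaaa
By the files' positions on mm9, the Krt19 probe lies on chromosome 11 at 100002392 to 100002451, and the second Krt7 probe on chromosome 15 at 101253718 to 101253777. The first Muc1 probe lies on chromosome 3 at 89034965 to 89035024. The second Muc1 probe is listed at 89035103 to 89035260, a span of 158 bases for 60 letters, so its sequence is not contiguous in the genome. The first Sox9 probe is listed on chromosome 11 at 112644310 to 112645162, a span of 853 bases, and is not contiguous either. The second Cftr probe lies on chromosome 6 at 18217739 to 18217798, and the other Cftr probe starts 54744 bases further along the chromosome. Exon and UTR annotation of mm9 was not used here. The Krt19 and Krt7 probes both hold 55% G and C, the first Sox9 probe 60% and the second Cftr probe 35%.

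The scanner software called 23621 to 24710 probes per array well above background and found 0 spots saturated. Precision is limited by the number of arrays. All 13 islet endocrine markers checked, among them Ins1, Ins2, Gcg and Pdx1, were above background on all 6 arrays. Their mean level was 7.01 to 7.07 on NZO arrays and 6.89 to 7.10 on B6-ob/ob arrays, none of the 13 was called by limma, and 1 was lower at an unadjusted p under 0.05. Without B6-ob/ob 6, 1 was called higher. These counts use the brightest probe of a gene, and other probes of Pcsk1 and Pcsk2, named after their values were seen, were called lower, at -0.67 and -0.56 with an adjusted p of 0.049 for both. Each signed value subtracts B6-ob/ob from NZO as the scanner files are labelled, which is opposite in direction to the value table that the authors deposited. Over 18307 probes centred on their own means, each column of that table correlated best with an array labelled with the other strain, at 0.966 to 0.984, and at -0.778 to -0.523 with the array of its own label. Ifi202b and H2-Ea, which mice of B6 background are known not to express, were above background on 3 arrays labelled NZO and on 0 labelled B6-ob/ob.

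The duct genes fell into 5 that were called higher in NZO islets and 4 that were not called, which does not show equal levels. Krt19, Sox9 and Car2 were higher in NZO, with differences on the log2 scale of 4.37 for Krt19, 3.62 and 3.80 for Sox9 and 2.71 for Car2. Muc1 and Cftr were also higher but were not above background on any B6-ob/ob array, so their differences are bounds, at least 5.42-fold for Muc1 by its lower bound and at least 2.64-fold for Cftr. The simple epithelial keratins Krt8, Krt18 and Krt7 differed by -0.07 to 0.32, and Spp1 by 0.71 with a wide spread in B6-ob/ob. Of the 15 probes, 13 were above background on at least 3 of 6 arrays and were tested, and 7 probes of 5 genes were called higher by limma at an adjusted p under 0.05. Over all 24628 tested probes, 11.5% were called higher and 10.3% lower, and the median difference was -0.06. No member probe was called lower, and 0 were lower at an unadjusted p under 0.05. The same 7 probes were those on which the strains' arrays did not overlap, against 18.6% of all tested probes without overlap and higher in NZO. Cftr and Muc1 were tested only because of the NZO arrays, so these counts describe the probes and do not support a direction.

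**Figure D1:**
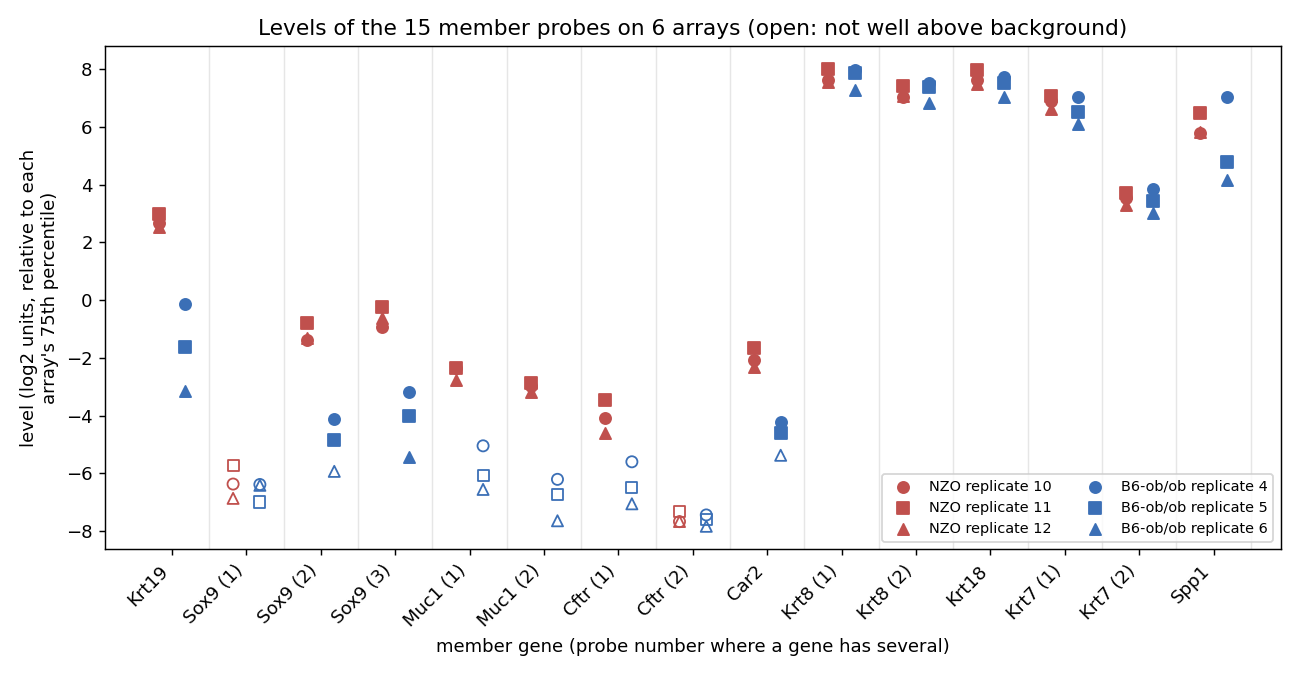
Levels of the 15 probes on the log2 scale, relative to the 75th percentile of each array, with 1 point per array; red marks NZO, blue marks B6-ob/ob, and open symbols were not well above background. Krt19 lies between 2.54 and 2.996 on the NZO arrays and between -3.16 and -0.14 on the B6-ob/ob arrays, while the points of both strains mix for Krt8, Krt18, Krt7 and Spp1.

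Krt19, the acidic keratin used most widely as a duct cell marker, stood at 2.66, 2.996 and 2.54 on arrays NZO 10, 11 and 12. On arrays B6-ob/ob 4, 5 and 6 it stood at -0.14, -1.62 and -3.16. Every NZO array was above every B6-ob/ob array by at least 2.68, and the B6-ob/ob arrays spanned 3.02 against 0.46 among NZO arrays. The mean level was 2.73 ± 0.24 (SD, n = 3) in NZO and -1.64 ± 1.51 (SD, n = 3) in B6-ob/ob. The difference of 4.37 (standard error 0.71), or 20.7-fold, had an adjusted p of 0.0077 by limma. Its 95% interval ran from 2.66 to 6.08. In processed intensity, the Krt19 probe read between 2376 and 2730 in NZO and 334, 148 and 49.1 in B6-ob/ob. From the highest difference down, it ranked 65 of the 24628 tested probes. Slides carry several arrays each, and B6-ob/ob 4 shared its slide with NZO 10, and B6-ob/ob 5 and 6 theirs with NZO 11. Within those slides the Krt19 difference was 2.80 and 5.39.

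Sox9, the transcription factor of pancreatic progenitors and adult ducts, was read by 3 probes. The second probe, on chromosome 11 at 112648809 to 112648868, gave levels of -1.38, -0.79 and -1.32 in NZO and -4.12, -4.83 and -5.93 in B6-ob/ob. The third, at 112647008 to 112647067, gave -0.93, -0.24 and -0.62 in NZO and -3.18, -4.03 and -5.44 in B6-ob/ob. On both probes the NZO arrays lay wholly above the B6-ob/ob arrays, by 2.74 and 2.24 at the closest. Sox9 was higher in NZO by 3.80 with a standard error of 0.46 on the second probe and by 3.62 with a standard error of 0.56 on the third, with adjusted p of 0.0027 and 0.0065 by limma. In B6-ob/ob, 2 of 3 arrays were above background at the second probe and 3 at the third. The first Sox9 probe, printed with the other sequences, lies upstream of both and was above background on 0 of 6 arrays, with levels of -6.87 to -5.72 in NZO and -7.00 to -6.39 in B6-ob/ob, so it bears on neither strain. Within slides the Sox9 difference was 2.74 and 4.59 on the second probe and 2.24 and 4.49 on the third. Under an alternative that changed both the background correction (normexp, with a constant of 50 added) and the scaling (quantile normalization), it was 1.60 and 1.94, and both probes were still called.

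Muc1, a transmembrane mucin of the apical surface of ducts and other glands, passed background on all 3 NZO arrays and on 0 of the 3 others at both of its probes. Its first probe read -2.35, -2.34 and -2.76 in NZO and -5.05, -6.08 and -6.56 in B6-ob/ob, where the values have no meaning beyond a bound. Its second probe read -2.98, -2.87 and -3.19 in NZO and -6.21, -6.74 and -7.64 in B6-ob/ob. Against the lowest signal that counted as above background on each array, Muc1 was at least 7.34-fold higher in NZO by the first probe and at least 5.42-fold by the second. This bound uses the higher of that lowest signal and the probe's own value on each array of the dim strain. The adjusted p by limma was 0.0022 and 0.0011, with fitted differences of 3.41 and 3.85. The sequences of the 2 probes, printed with the others, share no position. Both probes passed the filter on dim probes only through the NZO arrays, so the shared direction of their bounds is no support for it.

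Cftr, the chloride channel that is faulty in cystic fibrosis, was near the limit of detection. Its first probe, on chromosome 6 at 18272483 to 18272542, read -4.07, -3.47 and -4.61 in NZO and -5.60, -6.49 and -7.06 in B6-ob/ob. It was above background on all 3 NZO arrays and on 0 B6-ob/ob arrays, which bounds Cftr at 2.64-fold higher in NZO or more. The fitted difference was 2.33 with a standard error of 0.44 and an adjusted p of 0.013 by limma. Without B6-ob/ob 5 the adjusted p was 0.055 and the call was lost, and within slides the difference was 1.53 and 3.30. The second Cftr probe was above background on 0 of 6 arrays. Under normexp with quantile normalization the fitted differences of the dim probes were much smaller, each still called. Cftr fell from 2.33 to 0.37, Muc1 from 3.41 to 0.83 and from 3.85 to 0.80, and Car2 from 2.71 to 1.02.

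Car2, the cytosolic carbonic anhydrase that supplies bicarbonate in duct cells and also in red blood cells, read -2.09, -1.66 and -2.31 in NZO and -4.22, -4.61 and -5.38 in B6-ob/ob. All NZO arrays lay at least 1.90 above all B6-ob/ob arrays, and B6-ob/ob 6 was not above background. The difference was 2.71 with a standard error of 0.33, 6.56-fold, with an adjusted p of 0.0027 by limma. It was 2.13 and 3.33 within slides. Since Car2 is also a red cell gene, erythroid markers are given beside it. Of 9 such markers on the array 5 were tested, none was called, 1 was higher at an unadjusted p under 0.05 (1 was called higher without B6-ob/ob 4 and 1 lower without NZO 12), and their differences ran from -0.36 to 0.64. The defining genes Klf1, Rhag and Epb42 were not above background on enough arrays to be tested.

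**Figure D2:**
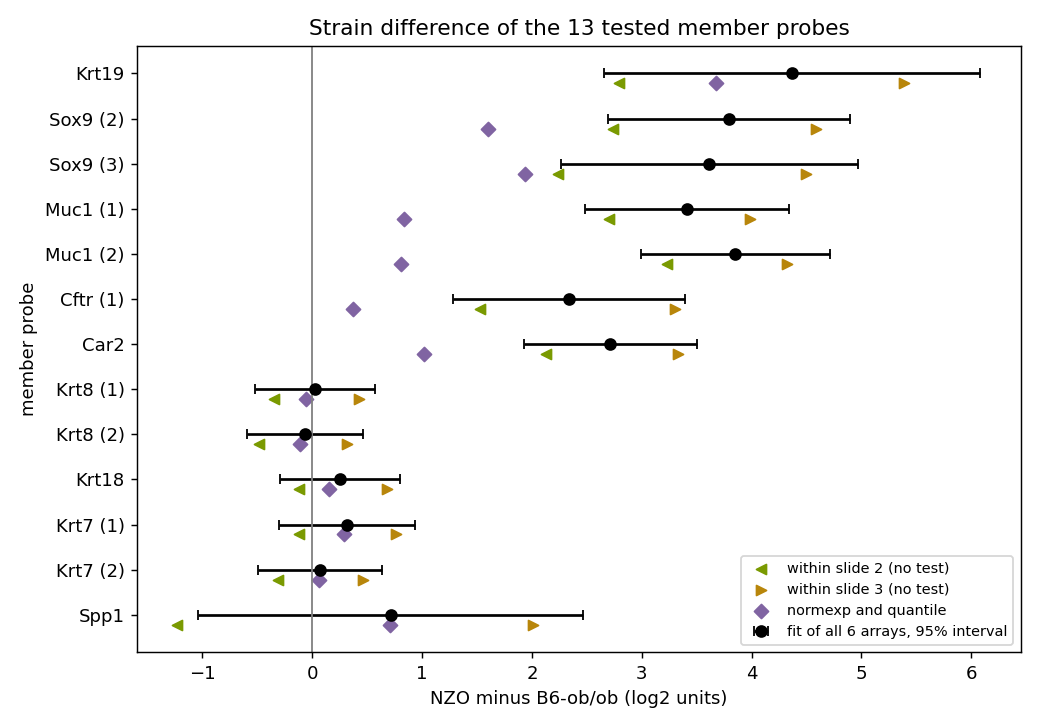
Difference between strains (NZO minus B6-ob/ob, log2 units) of the 13 tested probes, with the 95% interval of the limma fit as a bar; triangles give the difference within each slide that holds both strains and diamonds the value under normexp and quantile normalization. The intervals of the 7 probes of Krt19, Sox9, Muc1, Cftr and Car2 lie above 0, those of Krt8, Krt18, Krt7 and Spp1 include 0, and normexp lowers the dim probes most.

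The other keratins among the 9 genes did not pass the test. Krt8, the basic partner in the filament of simple epithelia, read 7.62, 8.01 and 7.56 in NZO and 7.97, 7.87 and 7.29 in B6-ob/ob at its first probe (chromosome 15, 101827346 to 101827405). The strains overlapped, the difference was 0.02 with a 95% interval of -0.52 to 0.57, and the adjusted p was 0.96 by limma. The second Krt8 probe differed by -0.07, with an interval of -0.60 to 0.46. Krt18, the acidic partner of Krt8, read 7.61, 7.95 and 7.47 in NZO and 7.74, 7.52 and 7.02 in B6-ob/ob. It differed by 0.25 with an interval of -0.29 to 0.80 and an adjusted p of 0.48. These intervals leave out a change of 1 on the log2 scale in either direction.

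Krt7, a basic keratin of ducts and other glands, was measured at 2 probes that lie 4454 bases apart on chromosome 15. The first, at 101258172 to 101258231, read 6.90, 7.06 and 6.61 in NZO and 7.02, 6.51 and 6.09 in B6-ob/ob. The second, whose sequence is printed with the others, read 3.55, 3.70 and 3.31 in NZO and 3.86, 3.44 and 3.03 in B6-ob/ob. Array B6-ob/ob 4 lay within or above the NZO range on both, and B6-ob/ob 6 below it. Krt7 differed by 0.32 with an interval of -0.31 to 0.94 at the first probe and by 0.07 with an interval of -0.49 to 0.64 at the second, with adjusted p of 0.44 and 0.86 by limma. Krt8, Krt18 and Krt7 were called under none of the 15 or 16 alternatives tried on each of their probes, the value table aside.

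Spp1, whose product osteopontin binds integrins and Cd44, was bright in every sample but uneven among B6-ob/ob arrays. It read 5.80, 6.47 and 5.82 in NZO and 7.03, 4.78 and 4.14 in B6-ob/ob, so that B6-ob/ob 4 was the highest of all 6 arrays and the other B6-ob/ob arrays the lowest. The difference was 0.71 with a standard error of 0.72, an interval of -1.04 to 2.46 and an adjusted p of 0.54 by limma. Within slides it changed sign, at -1.23 beside B6-ob/ob 4 and at 2.01 beside B6-ob/ob 5 and 6. Without B6-ob/ob 4 the difference was 1.57 and the adjusted p 0.019, the only alternative of 16 that called it, and without B6-ob/ob 6 the difference was 0.13. Macrophages are another source of osteopontin, and of 16 macrophage markers on the array 14 were tested and 7 were called higher in NZO, or 3 without NZO 10, NZO 11 or B6-ob/ob 5. Their mean level was -0.41 to 0.32 in NZO and -1.22 to -0.89 in B6-ob/ob, and on B6-ob/ob 4, where Spp1 was highest, it was the lowest of the 6 arrays. The part of macrophages in the Spp1 values was not tested.

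The members shared which array was highest or lowest within each strain. They were chosen by name, though with earlier results of these data known. The shared order of arrays can be read only from the 8 probes of Krt19, Sox9, Krt8, Krt18, Krt7 and Spp1 that were above background on all 6 arrays. All 8 were highest on NZO 11 among the NZO arrays, against 33.5% of all 21963 probes above background on all arrays. All 8 were also highest on B6-ob/ob 4 and lowest on B6-ob/ob 6, against 41.5% and 40.4%. With arrays centred on the median, a setting chosen for this purpose after seeing the data, all 3 counts were again 8. The shares of all these probes were then 25.1%, 34.5% and 39.9%. Under quantile normalization, chosen likewise, the counts were 8, 6 and 8, against 28.9%, 36.4% and 35.6% of all these probes. Probes of 1 gene and partners in 1 filament are not independent of each other, so the counts are a description. Of 26 genes on a list of other ductal markers that were above background on all arrays, 17 were highest on NZO 11, 19 on B6-ob/ob 4, and 17 lowest on B6-ob/ob 6. These shares were 65.4%, 73.1% and 65.4%, and 57.7%, 61.5% and 53.8% under quantile normalization. Of the 13 islet endocrine markers, 7 were highest on NZO 11, 7 on B6-ob/ob 4, and 6 lowest on B6-ob/ob 6. These shares of 53.8%, 53.8% and 46.2% lay above those of all probes. Under quantile normalization the counts of endocrine markers were 3, 4 and 3. Their shares of 23.1%, 30.8% and 23.1% then lay below those of all probes. These few markers do not settle whether endocrine genes share the order.

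**Figure D3:**
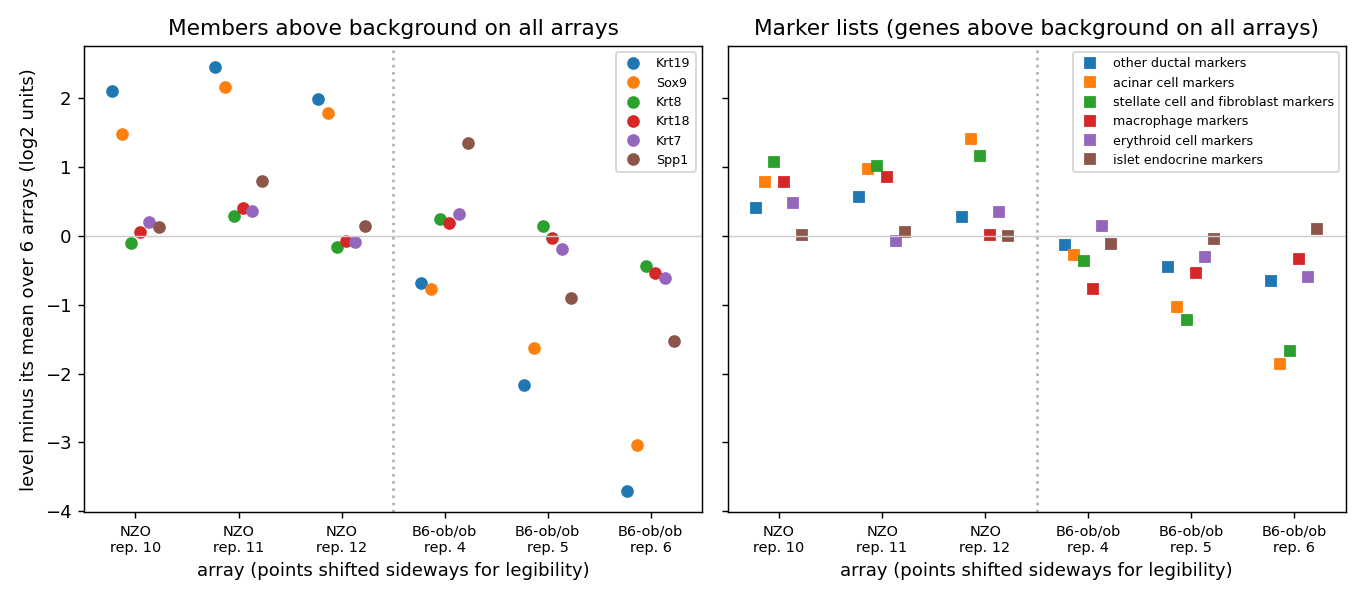
Level on each array minus its mean over the 6 arrays (log2 units), on the left for the 6 genes with a probe above background on all arrays, by the brightest such probe, and on the right for marker lists, as the mean of their genes above background on all arrays. Among B6-ob/ob arrays, Krt19, Sox9, Krt8, Krt18, Krt7 and Spp1 are highest on array 4 and lowest on array 6. The means of the other ductal, acinar, stellate and fibroblast, and erythroid markers have the same order. Those of the macrophage and islet endocrine markers are lowest on array 4 and highest on array 6.

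Markers of the other cells that surround islets also differed. Among 22 markers of acinar cells, 20 were called higher in NZO, with a median difference of 2.23, and their mean level was 5.87 to 6.49 in NZO and 4.74, 4.02 and 3.23 on B6-ob/ob 4, 5 and 6. The count was 9 to 13 without B6-ob/ob 5 or without any 1 of the NZO arrays, and 10 with slide as a block. Of 12 stellate cell and fibroblast markers 10 were called higher, with a median of 2.71, and their mean level was 1.72 to 1.91 in NZO and -0.04, -0.88 and -1.32 in B6-ob/ob. Over all genes by their brightest probe, 13.2% were called higher and 8.92% lower, and the median was -0.03. Of the 21 acinar markers above background on all arrays, 20 had their highest B6-ob/ob value on array 4 and 21 their lowest on array 6, which are also the highest and lowest B6-ob/ob arrays for Krt19 and Sox9. Of 10 such stellate and fibroblast markers, 9 were highest on array 4 and 8 lowest on array 6. Among NZO arrays, 18 of these 21 acinar markers were highest on NZO 12, whereas Krt19 and Sox9 were highest on NZO 11. Of all probes above background on all arrays, 41.5% were highest on B6-ob/ob 4, 40.4% lowest on B6-ob/ob 6 and 35.8% highest on NZO 12. Of 10 mesothelial markers 4 were tested and 2 were called higher, Upk3b at least 4.66-fold and Slurp1 by a fitted 2.24. For Slurp1 only 1 of 3 B6-ob/ob arrays was above background, so 2.24 is no measured size. The defining markers Wt1, Upk1b, Bnc1, Lrrn4, Rspo1 and Krt14 were not kept, and Msln differed by -0.35. Without B6-ob/ob 5, or without any 1 NZO array, 1 of these 4 was called. With slide as a block Upk3b was called higher, Slurp1 was not called, with an adjusted p of 0.10, and Msln was called lower at -0.78 with an adjusted p of 0.032. The part of these cell types in the duct gene values was not tested.

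Other genes known as duct cell markers were mostly higher in NZO, with exceptions. On a list of 34, 32 were tested, 19 were called higher and 1 lower, and the median difference was 0.82. Without B6-ob/ob 5, 12 were called higher, and without B6-ob/ob 6, 2 were called lower. Wfdc2, a secreted protease inhibitor of glandular epithelia, was higher by 3.94 with an adjusted p of 0.0031 by limma, reading 0.56 to 1.24 in NZO and -3.93 to -1.96 in B6-ob/ob. The matrix protease Mmp7 was higher by 3.85, and 1 of 3 B6-ob/ob arrays was above background. Prom1, the apical membrane protein CD133, was lower by 1.87 on the log2 scale in NZO with an adjusted p of 0.010. It read -0.41 to 0.29 in NZO and 1.26 to 2.42 in B6-ob/ob, without overlap.

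Genes that work beside Cftr and Car2 in ductal secretion formed a list of 20, of which 15 were tested. Of these 6 were called higher, and the median difference was 0.43. Aqp5, a water channel of glandular cells, differed most, at least 34.4-fold, with levels of -0.64 to -0.13 in NZO and no array above background in B6-ob/ob. Kcnq1, a potassium channel of epithelia, was higher by 2.35, and Ano1, a calcium-activated chloride channel, by 2.07, with adjusted p of 0.0023 and 0.0003 by limma. The bicarbonate transporter Slc4a4, the secretin receptor Sctr, Slc26a3, Slc9a3 and Car12 did not pass the filter on dim probes.

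Transcription factors and signals around Sox9 formed a list of 24, of which 19 were tested, 11 were called higher and 1 lower, with a median of 1.06. The greatest differences were those of Fgfr2, the receptor through which Fgf10 acts on pancreatic progenitors, at 2.87, of Sox6 at 2.36 and of the receptor Notch2 at 2.30. Foxa2, a factor shared by ductal and endocrine cells, was lower by 0.88 on the log2 scale with an adjusted p of 0.040, and was called in 7 of 16 alternatives. Other probes, named after their values were seen, went against the brightest for some genes: Hnf4a, not called at its brightest probe, was called lower at another, by -1.59 with an adjusted p of 0.0047, and Gata6, called higher at its brightest probe, differed by 0.13 and -0.04 at its others. The count of higher genes was 7 with slide as a block and also without B6-ob/ob 5.

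Among the other keratins, 40 were on the array and 29 of them did not pass the filter on dim probes. Of the 11 tested, 4 were called higher and 1 lower, and the median difference was 0.32. Krt23, an acidic keratin, read 1.64, 2.71 and 1.22 in NZO and -2.54, -3.03 and -3.71 in B6-ob/ob, and was higher by 4.95 with an adjusted p of 0.0011 by limma. Krt17, known from basal cells and injured epithelia, was higher by 4.67 and read 0.65 to 2.81 in NZO and -3.58 to -2.67 in B6-ob/ob. For both, no NZO array overlapped with a B6-ob/ob array, and NZO 11 was the highest of all. Krt85, a hair keratin, was at least 3.20-fold and Krt80 at least 3.51-fold higher in NZO, each with 0 arrays above background in B6-ob/ob. Krt85 was called in 11 of 15 alternatives, and not under normexp with quantile normalization, and Krt80 in 15 of 15. Krt5, the keratin of basal cells, was above background on 3 B6-ob/ob and 0 NZO arrays and was at least 1.60-fold lower in NZO.

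A list of filament partners had 17 genes on the array. It held proteins that hold keratin filaments, among them those of desmosomes, and also Vim and Nes, which belong to filaments other than keratin. Of these genes 14 were tested and 5 were called higher, Vim and Nes among the 5, and the median was 0.19. Dsg2, named after its values were seen, was called at its brightest probe but not at its others, which differed by 0.11, -0.001 and 0.38. Vim, the intermediate filament of mesenchymal cells, was higher by 1.67 with an adjusted p of 0.036 by limma and was called in 9 of 16 alternatives. Periplakin (Ppl) was higher by 1.00, and its other tested probe differed by 1.38 with an adjusted p of 0.11. Plakoglobin (Jup) was higher by 0.51 and was called in 8 of 16 alternatives. Without 1 array the count ranged from 0 to 3, the lowest and highest over the 6 arrays.

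Receptors and processing enzymes of osteopontin formed a list of 15, of which 12 were tested and 4 were called higher, with a median of 0.68. Without NZO 10, NZO 11 or B6-ob/ob 5 the count was 2. Itgb3, an integrin subunit that binds osteopontin and is named here after its values were seen, differed by -0.20 at its brightest probe and was called lower at another, by -2.55 with an adjusted p of 0.0006. Itga8, an integrin subunit of mesenchymal cells, was higher by 3.13, the transglutaminase Tgm2 by 2.65 and Itga5 by 1.22, with adjusted p of 0.0005, 0.0020 and 0.039 by limma. Itga5 was called in 11 of 16 alternatives. Cd44, named as a receptor of osteopontin and chosen after its value was seen, differed by -0.50 with an adjusted p of 0.21.

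Relatives of Car2 and Muc1 were also uneven. Of 15 other carbonic anhydrases 13 were tested and 4 were called higher: Car6, a secreted form, at least 5.07-fold, Car11 by 2.17, Car8 by 1.30 and Car9 by 1.22, the latter called in 6 of 16 alternatives. Of 12 other mucins 4 were tested and 3 were called higher: Muc13, a membrane mucin of the gut and ducts, at least 4.55-fold, Muc4 by 1.76 and Muc20 by 1.21. Muc13 was called in 13 of 15 alternatives. Muc4 had 5 tested probes that disagreed, with differences of 1.76, 2.30, 0.08, -0.47 and -0.52. The probe at 2.30 was also called higher, but that at -0.52 was called lower, with an adjusted p of 0.029 by limma.

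**Figure D4:**
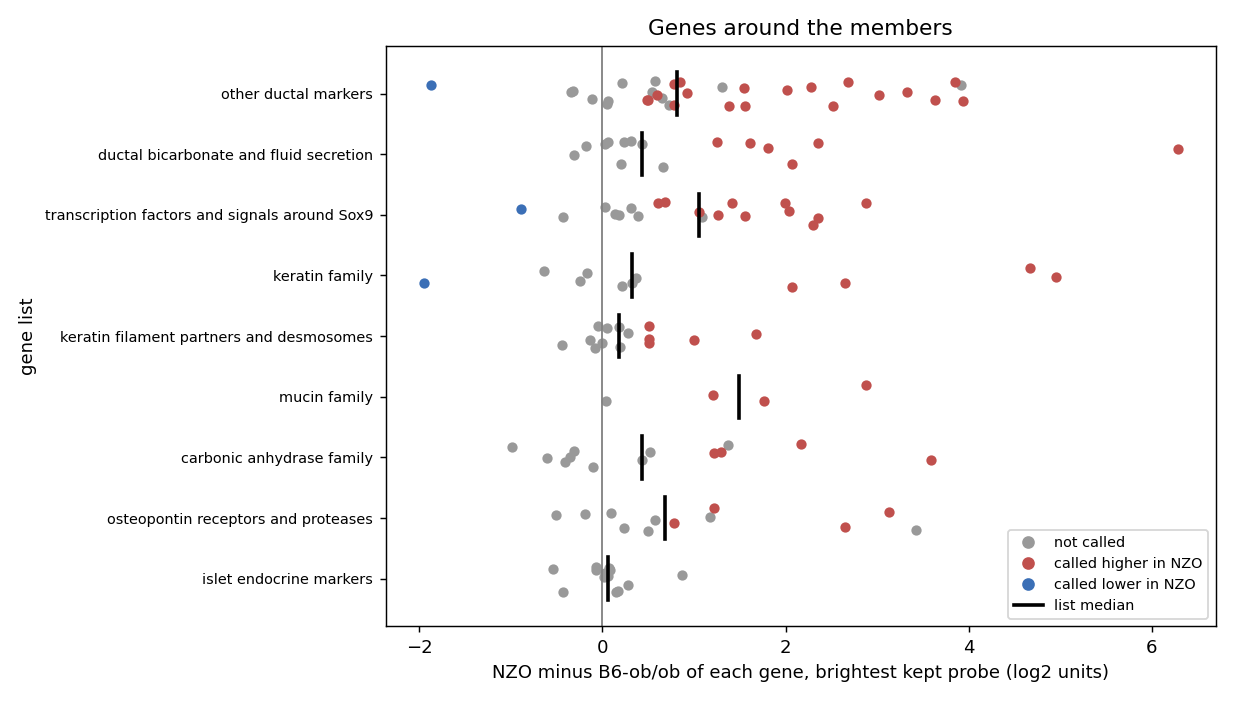
Difference between strains (NZO minus B6-ob/ob, log2 units) of each tested gene on 9 lists, by its brightest tested probe; red points were called higher, blue lower and grey were not called, and black bars are list medians. Genes not above background in 1 strain are plotted at their fitted value, which is no measured size: Aqp5, farthest to the right, and Krt5, farthest to the left, are among them. Of the called genes above background on all arrays, Krt23 at 4.95 lies farthest to the right and Prom1 at -1.87 farthest to the left, and none of the 13 islet endocrine markers was called.

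Likeness of pattern was measured for the 6 genes with a probe above background on all arrays, as the root mean square difference over 6 arrays after each probe was centred on its mean, among 19610 named probes. Among the 3 nearest to Krt19 were the cytokine Il6 at 0.29 and the collagen Col1a1 at 0.32. Nearest to Sox9 were Dmbt1, a secreted scavenger protein of mucosal surfaces, at 0.20, the glutathione transferase Gsta3 at 0.24 and the pancreatic phospholipase Pla2g1b at 0.24. Krt19 and Sox9 lay 0.46 apart. For Spp1 they were Ak8, Ahnak and Sec14l3 at 0.29 to 0.34, all of them high on B6-ob/ob 4 and low on B6-ob/ob 6. For the keratins that did not pass the test the nearest were Septin2, Arfgef3 and Tmem234 at 0.07 to 0.08 from Krt8, the ribosomal protein genes Rpl37 and Rpl34 and Ly6c2 at 0.06 from Krt18, and Srxn1, Rps29 and Acot9 at 0.04 from Krt7. Krt18 lay 0.12 from Krt8 and 0.11 from Krt7, while Krt19 lay 2.28, 2.16 and 2.12 from Krt8, Krt18 and Krt7. Under quantile normalization the 3 nearest genes of Krt19 and of Sox9 were the same and 2 of 3 were for Spp1, but none of those of Krt8, Krt18 and Krt7.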

How the data were processed

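Linear spot intensities were deposited as scanner output, written by version 10.5.1.1 of Agilent Feature Extraction per the file headers and by 9.1 per the submitters' processing notes. The processed intensity was background-subtracted within each array per the file headers and was not scaled between arrays. Total RNA was amplified to Cy3-labelled cRNA with 1 colour per array, per the labels' protocols. The authors' value table, with processed intensities at 33150 probes of which 33074 matched a scanner probe, served as an alternative only. Its columns were grouped by their own labels there. Its direction is unsettled, since its columns follow arrays of the other strain.

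Control spots were left out and 61 to 76 outlier spots per array were treated as missing. Spots of a probe were averaged as log2 intensity, and each array's 75th percentile over 41174 probes was subtracted. A filter for signal well above background on 3 arrays or more kept 24628 probes. The strains' difference was tested in limma 3.58.1 (R 4.3.3; functions lmFit and eBayes). Tests were two-sided and p-values were adjusted by Benjamini and Hochberg over those probes, at a threshold of 0.05. Scripts were tested on simulated data. Names came from the files, updated through RefSeq accessions at 25089 probes and through symbols or synonyms at 6339 and 1639. Positions are on mm9, per the files. The 9 genes, the 14 lists and the alternatives were chosen with earlier results of these data known. Each list counts a gene once, by its brightest kept probe. Named were all 9 genes, up to 3 called genes per list and direction by size, called keratins, carbonic anhydrases and mucins up to 6 each, and the 3 nearest patterns of each gene. Markers named from the lists of other cell types illustrate those lists. Genes singled out otherwise are marked in the text. A few genes that met this rule are left out here.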

Additional observations from a re-analysis of the deposited data

How the results depend on the processing

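Every call of a Krt19, Sox9 or Car2 probe held under the 14 to 16 alternatives in which it was tested, the value table aside, with adjusted p of 0.0002 to 0.040. Muc1 was called in 14 of 14 or 15 of 15 and Cftr in 14 of 15, but both are at background in B6-ob/ob and were tested only because of the NZO arrays, so this says nothing of their size. Of 13 probes, 2 were called higher among the 8 above background on all 6 arrays, those of Krt19 and the third of Sox9, because that filter removes the dim ones. Leaving out 1 array gave 6 to 8 called member probes and 2814 to 5102 called probes among all tested, and array weights gave 10430 of them. No paired analysis was possible because the strains share no replicate numbers. Slide was used as a block in its place, where the calls of the 7 member probes held. On dim probes the number of arrays and the signal over background limit the size of a difference. Under normexp with quantile normalization the fitted difference fell from 6.28 to 2.27 for Aqp5, from 3.85 to 1.45 for Mmp7 and from 2.87 to 1.12 for Fgfr2. For Tgm2 it went from 2.65 to 2.52 and for Muc4 from 1.76 to 1.63. All these genes were still called.

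The value table, grouped by its own column labels, turned every called difference that it holds. It gave -4.34 for Krt19, -3.60 for Sox9, -3.51 for Muc1, -1.78 for Cftr and -2.66 for Car2, with 0 member probes higher and 5 lower. Among duct markers and secretion genes it gave -3.91 for Wfdc2, -3.78 for Mmp7, -6.23 for Aqp5, -2.36 for Kcnq1 and -2.06 for Ano1. Around Sox9 and the filament partners it gave -1.39 for Notch2, 0.93 for Foxa2, -1.69 for Vim, -1.01 for Ppl and -0.51 for Jup. For the osteopontin and mesothelial genes it gave -2.12 for Tgm2, -1.17 for Itga5, -4.29 for Upk3b and -2.14 for Slurp1. Other keratins stood at -4.91 for Krt23, -4.63 for Krt17, -2.60 for Krt85, -1.99 for Krt80 and 1.95 for Krt5. Relatives of Car2 and Muc1 stood at -3.52 for Car6, -2.13 for Car11, -1.28 for Car8, -1.18 for Car9, -2.82 for Muc13, -1.78 for Muc4 and -1.18 for Muc20. Its counts of genes higher and lower were 0 and 18 for other ductal markers, 0 and 5 for secretion, 0 and 5 around Sox9, 0 and 3 for filament partners, 0 and 2 for osteopontin receptors, 2 and 4 for keratins, 0 and 3 for carbonic anhydrases and 0 and 3 for mucins.

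Some counts of list genes also moved, and the cause was not tested. For other ductal markers, 12 to 20 genes were higher and 1 to 2 lower without 1 array, and 3 were lower with array weights. Around Sox9, 7 were higher with slide as a fixed block and 7 to 10 without 1 array. The 1 lower gene there became 0 under normexp, quantile normalization, no filter and the slide block, and 0 to 1 without 1 array. Higher filament partners numbered 2 under median centring, 1 without a filter, 1 with the slide block and 0 to 3 without 1 array. Higher osteopontin genes numbered 2 without a filter, 8 with array weights, where 1 was lower, and 2 to 6 without 1 array. Keratins called higher numbered 2 above background on all 6 arrays, and those called lower numbered 2 under normexp, median centring, quantile normalization and array weights. Carbonic anhydrases called lower numbered 1 under normexp, 2 with array weights and 0 to 1 without 1 array.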
